A study of Homo sapiens with 28 samples.

Results

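Iodoacetamide alkylation of s4U-labelled RNA, the conversion step of the method named SLAM in the sample titles, was compared between drop-out handling and improved handling of the same kind of RNA. The members are the 6 iodoacetamide libraries among the 28 samples of the series, chosen by their titles and by the chemistry given in the labels. They came from wild-type HEK 293T cells, an established human embryonic kidney line, which is the only cell background in the comparison. Under each handling, 2 libraries came from cells given 100 µM s4U for 2 h and 1 library came from cells given no s4U. All 6 libraries carry the iodoacetamide treatment, so the unlabelled ones measure the T-to-C mismatches that appear without s4U. The labels name the handlings only as drop out conditions and improved handling conditions, and the series' design text describes the improved protocols as meant to limit loss of s4U RNA and of reads with T-to-C mismatches. The labels do not say whether replicates were separate cultures, so p-values measure the spread between libraries, which may be technical. In the main gene fits this spread was estimated jointly with libraries of 2 other conversion chemistries of the series.

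4-Thiouridine (s4U) is a uridine analogue that cells take up and build into RNA while it is being made. Iodoacetamide alkylates the thiol of s4U, and reverse transcriptase then places a G opposite the alkylated base, so the position is read as C instead of T. Reads with T-to-C mismatches therefore come mainly from RNA made during labelling, and the fraction of new RNA of a transcript after a fixed labelling time gives its turnover when the total level is steady. Short-lived messages such as those of transcription factors reach a high new fraction quickly, while messages of housekeeping enzymes and ribosomal proteins, and the stable RNAs made by RNA polymerase III, stay mostly old.

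The 6 libraries held 2129372 to 5813077 aligned reads, of which 19.3% to 41.5% named no gene. Contigs that carry ribosomal DNA copies took 28.1% to 44.9% of reads in the 3 drop-out libraries and 10.2% to 15.3% in the 3 improved ones. Exonic reads covered 30.6 to 32.1 T positions on average under drop-out handling and 33.3 to 35.7 under improved handling. Drop-out s4U replicate 2 was the deepest library, and the drop-out replicates differed more from each other than the improved ones did (chi-square over its degrees of freedom 7.87 against 2.11). Of 9 marker genes of HEK293T cells listed for this work, 3 are in the authors' deposited table of rate constants: VIM, NEFM and NEFL. The other HEK293T markers are absent from its 1600 iodoacetamide transcripts. That table also holds 0 of the 12 listed markers of liver, blood, fibroblast, astrocyte or squamous cells.

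Converted reads, those carrying 1 or more T-to-C mismatches, were first counted as a share of each gene's exonic reads. Converted shares were higher under improved handling for a large part of the genes and in slowly and rapidly replaced RNAs. The median gene had 12.8% and 9.29% converted reads in drop-out replicates 1 and 2, and 21.6% and 21.2% in improved replicates 1 and 2. The unlabelled libraries gave 2.75% under drop-out and 3.36% under improved handling. Both improved libraries lay above both drop-out libraries in 1621 of 2263 genes (71.6%) and below both in 20. Of the 2263 genes, which had 50 or more exonic reads in each s4U library, edgeR's quasi-likelihood model of converted against other reads called 970 (42.9% at an adjusted p under 0.05), all of them higher. The median log2 odds ratio, improved over drop-out, was 1.02. Only 115 genes had a negative log2 odds ratio, and none of these reached an unadjusted p under 0.05 in edgeR's test. The order of genes was similar under both handlings (Spearman rho = 0.75 across 2263 genes, which share libraries and are not independent replicates).

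The count table gives genes by Ensembl identifiers that the files used here do not pair with symbols, so at most 2 identifiers are named in each direction of a comparison. ENSG00000107862 on chromosome 10 had the largest log2 odds ratio among called genes with a mean of at least 200 reads. Its converted share was 4.81% and 7.41% in the drop-out s4U libraries, over 312 and 1026 reads, and 33.8% and 41.9% in the improved ones, over 133 and 229 reads. The unlabelled libraries gave 2.20% and 2.05%, so all 4 s4U libraries lay above background and both improved libraries far above the drop-out ones. The log2 odds ratio was 3.19 (SE 0.42, edgeR adjusted p = 2.78e-07). ENSG00000234741 on chromosome 1 had converted shares of 8.06% and 3.13% under drop-out and 31.5% and 24.9% under improved handling, with 2.24% and 3.62% in the unlabelled libraries. Its groups did not overlap, and its log2 odds ratio was 2.97 (SE 0.44, edgeR adjusted p = 2.92e-06), with 3.56 without drop-out replicate 1 and 2.12 without drop-out replicate 2. Total exonic counts of both genes were lower under improved handling, with log2 fold changes of -1.77 and -1.37.

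At the other end, ENSG00000117399 on chromosome 1 had 19.9% and 16.1% converted reads under drop-out and 5.88% and 16.3% under improved handling. Its groups overlapped, and its log2 odds ratio of -0.69 was not called (SE 0.60, edgeR adjusted p = 0.330). The ratio was -0.15 without improved replicate 1 and -1.76 without improved replicate 2. ENSG00000110700 on chromosome 11 had 8.77% and 7.57% under drop-out and 4.17% and 6.13% under improved handling, with 7.19% and 6.37% in the unlabelled libraries. All of its 6 values lay near background, and its log2 odds ratio of -0.67 was not called (SE 0.43, edgeR adjusted p = 0.191). The sign of these 2 genes depended on the measure. Reads with 2 or more mismatches gave 1.70 for ENSG00000110700, not called (edgeR adjusted p = 0.107). Its new fraction had a log2 odds ratio of 2.58, not called (SE 1.25, limma adjusted p = 0.141). That fraction was 4.87e-08%, the floor of the fit, and 1.48% under drop-out, and 3.08% and 1.92% under improved handling. Subtraction of the unlabelled libraries, 1 per handling, gave 0.17 for ENSG00000117399, not called (edgeR adjusted p = 0.966). For that gene reads with 2 or more mismatches gave -0.43 and the new fraction -1.16. The STAR alignment gave -0.60 and the HISAT2 alignment -0.88. None of these was called.

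Genes were grouped by turnover to ask whether handling acted differently on slowly and rapidly replaced RNA. Turnover was the converted share, less background, in the improved-handling libraries of the other 2 conversion chemistries of the series, so no converted share of the iodoacetamide libraries entered the grouping. The 2728 genes with a mean of at least 100 reads in the iodoacetamide libraries and at least 20 reads in each library used for the grouping formed 5 classes of 545 or 546 genes. In the slowest class the median converted share was 7.56% and 6.10% in the drop-out s4U libraries and 11.4% and 11.3% in the improved ones. In the middle class it was 13.4% and 9.88% under drop-out and 21.5% and 21.8% under improved handling. In the fastest class it was 32.1% and 22.2% under drop-out and 41.8% and 41.5% under improved handling. Both improved libraries lay above both drop-out libraries in each of the 5 classes, while the unlabelled libraries stayed between 1.95% and 3.82%.

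**Figure D1:**
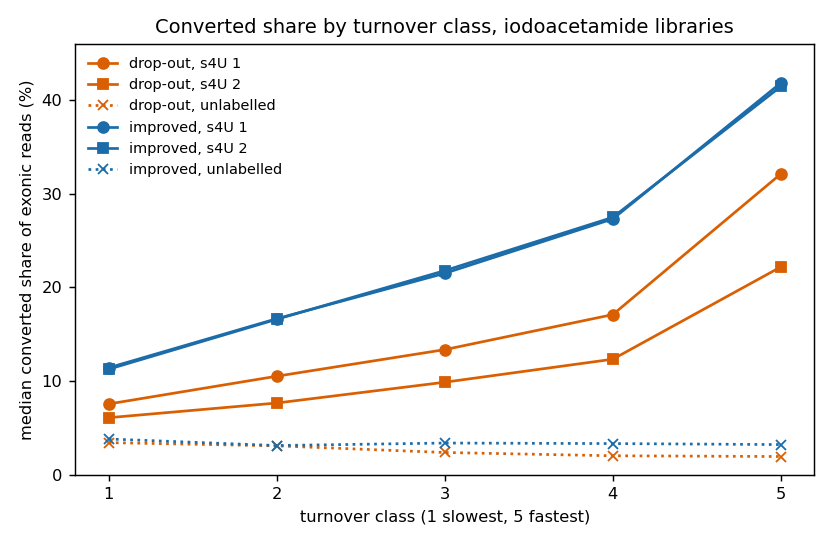
Median percent of a gene's exonic reads that were converted (y axis) in 5 turnover classes from slowest to fastest (x axis), 1 line per iodoacetamide library, orange for drop-out and blue for improved handling, with crosses and dotted lines for unlabelled libraries. The improved s4U libraries run together from about 11.4% to 41.8%, above both drop-out s4U libraries, and the unlabelled libraries stay below 3.82% or at it.

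The class means went from 6.83% ± 1.04 to 11.4% ± 0.11 (SD, n = 2) in the slowest class, a ratio of 1.66. They went from 9.09% ± 2.02 to 16.6% ± 0.04, from 11.6% ± 2.46 to 21.7% ± 0.20 and from 14.7% ± 3.37 to 27.4% ± 0.12 in the next classes (SD, n = 2), with ratios of 1.83, 1.86 and 1.86. In the fastest class the means were 27.2% ± 7.02 and 41.7% ± 0.27 (SD, n = 2), a ratio of 1.53. Background was not subtracted from these means, so the ratios of slow classes hold more of it. Unlabelled medians were 3.43% under drop-out and 3.82% under improved handling in the slowest class, and 1.95% and 3.23% in the fastest. The spread between replicates was several times larger under drop-out handling in every class. Of the genes tested for converted share, edgeR called 32.6%, 40.4%, 49.1%, 56.5% and 44.1% from the slowest to the fastest class, against 42.9% of all genes tested. The fastest class lay 24.6 and 16.1 percentage points above the slowest in the drop-out libraries and 30.4 and 30.2 points above it in the improved ones. These gaps averaged 20.3 ± 5.99 and 30.3 ± 0.16 points (SD, n = 2). The difference of 9.96 points gave an exact permutation p of 0.333 (two-sided), the smallest that 2 libraries against 2 allow. It was 6.22 points when the classes were formed from the drop-out libraries of the other 2 chemistries.

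The new fraction, estimated for each gene from the number of T-to-C mismatches and T positions of its reads, takes into account that new reads also carried more mismatches under improved handling. The fitted conversion rate of new reads was 6.03% and 4.47% per T position in the drop-out s4U libraries and 7.84% and 6.62% in the improved ones, which did not overlap. Per gene, the median new fraction was 11.1% and 7.29% under drop-out and 20.2% and 21.2% under improved handling. Of 2263 genes, 540 were called by limma (23.9%), 538 higher (23.8%) and 2 lower (0.0884%), with a median log2 odds ratio of 1.28. Among them were 513 of the 970 genes called for converted share. By class, the median new fraction in the slowest class was 4.57% and 2.79% under drop-out and 8.18% and 8.96% under improved handling. In the fastest class it was 36.2% and 24.5% under drop-out and 44.2% and 46.7% under improved handling. Median log2 odds ratios of the new fraction were 1.25, 1.40, 1.33, 1.51 and 0.96 from the slowest to the fastest class. The fastest class thus had the lowest median, a difference that was not tested.

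The 2 genes whose new fraction was called lower are given here although they were chosen after their values were seen. ENSG00000043355 on chromosome 13 had 67.0% and 59.6% converted reads under drop-out, over 94 and 171 reads, and 49.1% and 52.1% under improved handling, over 55 and 94 reads. Its new fraction was 90.2% and 89.7% under drop-out and 61.0% and 64.8% under improved handling, a log2 odds ratio of -2.36 (limma adjusted p = 0.0488). ENSG00000166974 on chromosome 18 had 23.7% and 24.3% converted reads under drop-out and 14.7% and 14.8% under improved handling, over 59 to 136 reads. Its new fraction fell by 1.40 on the log2 odds scale (limma adjusted p = 0.0355). Neither gene was called for converted share (edgeR adjusted p = 0.272 and 0.218). Limma called no gene lower with the replicate block, in the 4 s4U iodoacetamide libraries alone or with 1 conversion rate for all. In these fits 421, 299 and 849 genes were called higher. Lower calls remained in other fits: 1 lower and 539 higher without genes over 10% converted in an unlabelled library. Some also remained with either drop-out replicate left out.

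The number of converted-share calls moved by over 1.5 times under several settings. Without drop-out replicate 2 edgeR called 240 genes, 238 of them higher and 2 lower, and without improved replicate 1 or 2 it called 433 and 428. When the change of the unlabelled libraries was subtracted in the same fit, the median log2 odds ratio was 0.73 and 2 genes were called, with 303 at an unadjusted p under 0.05 in edgeR's test. That fit rests on 1 unlabelled library per handling, and in it ENSG00000107862 had a log2 odds ratio of 3.29 without a call (edgeR adjusted p = 0.166) and ENSG00000234741 one of 2.26 without a call (edgeR adjusted p = 0.300). The new-fraction calls fell to 140 without drop-out replicate 2. Without either improved replicate limma called 0 genes, with 665 and 624 at an unadjusted p under 0.05, while the median log2 odds ratios were 1.34 and 1.24 (no other tool was run on the new fraction).

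The second comparison asked how handling changed gene counts. In the s4U libraries edgeR called 7907 of 12449 genes (63.5%), 4540 higher (36.5%) and 3367 lower (27.0%) under improved handling, with a median log2 fold change of 0.38. In the unlabelled libraries, 1 per handling, the fit called 5964 genes (47.9%), 3342 higher and 2622 lower, with a median of 0.35; it takes their spread from the groups with 2 libraries and so compares these 2 libraries, not the conditions. Of the genes called, 5421 were called in both contrasts, 5418 of them in the same direction. They make up 68.6% of the genes called with s4U and 90.9% of those called without it. No gene was called by edgeR for a difference between the s4U and the unlabelled handling effect, where 626 had an unadjusted p under 0.05 and DESeq2 also called 0. This contrast rests on 1 unlabelled library per handling, and single genes had unequal estimates, such as ENSG00000234741 with log2 fold changes of -1.37 with s4U and -0.35 without (edgeR adjusted p of the difference = 0.945). Leaving out drop-out replicate 2 gave 2631 genes called higher and 2826 lower, so that calls of lower counts became the more frequent. Scaling by library totals in place of TMM moved the median log2 fold change of all genes from 0.38 to 0.99. The calls moved to 5906 higher and 2098 lower, so directions depend on the scaling. Each gene was tested against no change after scaling, not against the median of 0.38.

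ENSG00000245532 on chromosome 11 had the largest rise among called genes with at least 10 reads in each s4U library and a mean of at least 200. It had 34, 47 and 26 exonic reads in the drop-out libraries and 746, 1029 and 1110 in the improved ones, the last of each 3 being unlabelled. As TMM-scaled CPM, counts relative to the library's exonic reads, these were 44.7, 23.1 and 29.3 under drop-out and 701, 647 and 694 under improved handling. The s4U means were 33.9 ± 15.3 and 674 ± 38.2 CPM (SD, n = 2), a log2 fold change of 4.42 (SE 0.28, edgeR adjusted p = 5.04e-10), and the unlabelled libraries gave 4.56. The s4U value was 3.79 without drop-out replicate 2. ENSG00000114857 on chromosome 3 had 16, 31 and 14 reads under drop-out and 305, 458 and 537 under improved handling, and s4U means of 18.1 ± 4.10 and 287 ± 0.99 CPM (SD, n = 2). Its log2 fold change was 4.05 (SE 0.36, edgeR adjusted p = 1.41e-08). In both genes every improved library lay far above every drop-out library, with or without s4U. Both were picked by fold change and reached the mean of 200 reads through their improved libraries alone. The gap is therefore set in part by that choice.

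ENSG00000196890 on chromosome 1 and ENSG00000200488 on chromosome 2 had the largest falls by the same rule. ENSG00000196890 had 312, 276 and 211 CPM in the drop-out libraries and 16.0, 27.7 and 30.6 in the improved ones, and the groups did not overlap. It fell by 3.70 on the log2 scale (SE 0.28, edgeR adjusted p = 2.79e-09). ENSG00000200488 had 287, 1200.1 and 219.8 CPM under drop-out and 58.3, 57.9 and 51.3 under improved handling. Drop-out replicate 2 stood far above the other drop-out libraries, and the log2 fold change of -3.69 (SE 0.51, edgeR adjusted p = 3.31e-06) became -2.43 without it. With all libraries it was -2.55 in the STAR alignment and -2.94 in the HISAT2 alignment. Its reads were 26.7% and 18.3% converted in the unlabelled libraries, far above the median background of genes. Both falling genes were picked by fold change and reached the mean read number of the rule through their drop-out libraries alone. ENSG00000196890 had 237 and 562 reads in the drop-out s4U libraries and 17 and 44 in the improved ones. For ENSG00000200488 these were 218 and 2440 against 62 and 92, so drop-out replicate 2 weighed most. The gap of both genes is therefore set in part by that choice.

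The counts of slowly replaced RNAs were lower under improved handling relative to those of rapidly replaced RNAs, in s4U and unlabelled libraries alike. In the slowest turnover class 433 of 546 genes were called lower (79.3%) and 50 higher (9.16%), against 27.0% and 36.5% of all genes tested, whose median log2 fold change was 0.38. The share called lower went down through 67.5%, 56.6% and 49.7% to 35.0% in the fastest class, and the share called higher went up through 19.4%, 25.5% and 30.6% to 40.3%. Median log2 fold changes from the slowest to the fastest class were -1.62, -1.24, -0.85, -0.57 and 0.11 with s4U, and -1.61, -1.31, -0.77, -0.51 and 0.07 without it. Scaled by library totals, the s4U medians were -1.01, -0.64, -0.23, 0.05 and 0.72, which keeps the order but turns the sign of the fourth class.

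Membership of these classes required a mean of 100 reads over the same iodoacetamide libraries, in which the deepest, drop-out replicate 2, weighs most. Genes with many reads in these libraries had lower fold changes in general. Among the 2490 genes tested with a mean of 111 reads or more, 58.6% were called lower and 24.2% higher, with a median log2 fold change of -0.95 with s4U and -0.90 without. Against that level the slowest class lay lower and the fastest higher.

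Total exonic counts of each s4U library, converted and unconverted reads together, were then compared with those of the unlabelled library of its handling. In the slowest class the median log2 ratio of s4U to unlabelled counts was 0.06 and 0.34 in the drop-out libraries and 0.18 and 0.18 in the improved ones. In the fastest class it was -0.01 and -0.13 under drop-out and -0.22 and -0.12 under improved handling. The fastest class therefore lay below the slowest in all 4 libraries, by -0.08 and -0.47 under drop-out and by -0.40 and -0.30 under improved handling. The gap was -0.27 ± 0.28 under drop-out and -0.35 ± 0.08 under improved handling (SD, n = 2). Both values of a handling share 1 unlabelled library, whose own error neither the SD nor the permutation test includes. The difference of -0.08 was smaller than the spread between the drop-out replicates (exact permutation p = 1, two-sided, with 0.333 the smallest possible), and it was 0.12 without drop-out replicate 1. In bulk libraries such as these, fewer molecules of an RNA and less recovery of it cannot be told apart.

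Count changes also went with the T content of a gene's reads. T positions per read were averaged over the unlabelled libraries of the other 2 chemistries. In 5 classes of T content, with median T positions of 27.8, 32.7, 36.2, 39.6 and 44.3 per read, the median log2 fold change with s4U was -1.32, -0.74, 0.17, 0.98 and 1.78, against 0.38 for all genes. Without s4U it was -1.33, -0.76, 0.08, 1.04 and 1.94. The lowest T class had 59.8% of its genes called lower and 6.64% higher, and the highest T class had 4.34% lower and 70.2% higher, against 27.0% and 36.5% of all genes. Across 2734 genes with a mean of at least 100 reads, Spearman's rho between T positions and the log2 fold change was 0.57 with s4U and 0.54 without. The genes share libraries, and T positions per read also vary with read length. The handling effect on converted shares followed T content little, with a rho of -0.08 between T positions and its log2 odds ratio across 2263 genes. Median log2 odds ratios were 1.04, 1.13, 1.09, 0.91 and 0.83 from the lowest to the highest T class. EdgeR called 43.9%, 48.7%, 46.9%, 33.0% and 29.9% of the genes tested in these classes, against 42.9% of all.

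Turnover classes differ in T content, with a median of 32.5 T positions per read in the slowest and 35.3 in the fastest. The rise of fold changes with turnover was also present within 3 equal groups of T content. In the group with 14.5 to 31.6 T positions per read the median log2 fold change with s4U was -1.91 in the slowest class and -1.10 in the fastest. Between 31.7 and 36.8 T positions it went from -1.62 to -0.16, and between 36.8 and 52.0 from -0.44 to 1.29. The unlabelled medians were -1.80 and -1.05, -1.67 and -0.18, and -0.49 and 1.39 in the same order. Median log2 odds ratios of conversion lay between 0.68 and 1.48 in all 15 combinations of T content and turnover. In each T group the slowest class had the lowest median and the fourth class the highest, a difference that was not tested. Background was not subtracted in these odds ratios and made up a larger part of the share in the slowest class than in the fastest. For the new fraction, fitted with a background rate, the slowest class was not lowest. Its median log2 odds ratio was 1.25, against 0.96 in the fastest class, without division by T content.

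**Figure D2:**
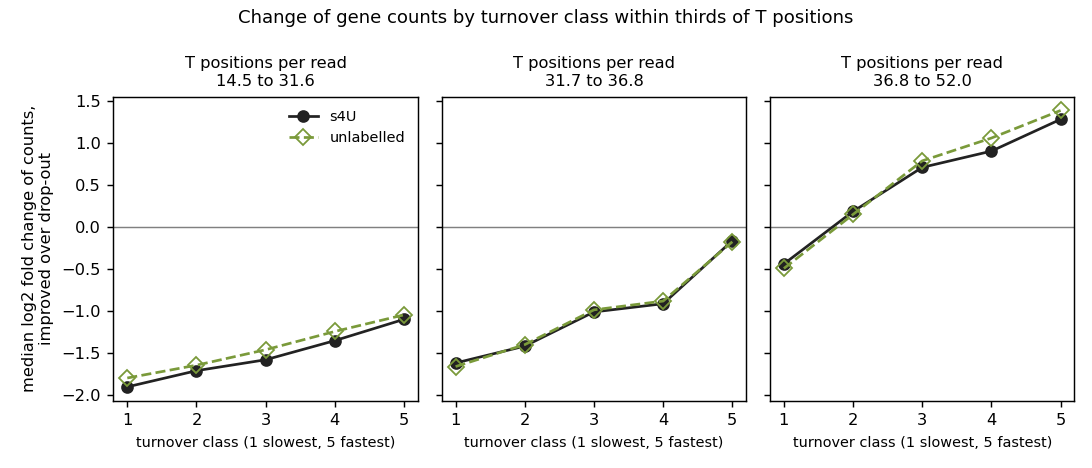
Median log2 fold change of exonic counts, improved over drop-out handling (y axis), by turnover class (x axis) in 3 panels of rising T positions per read, with filled circles for s4U and open diamonds for unlabelled libraries. Both lines rise from class 1 to class 5 in each panel and lie close together, from -1.91 in the slowest class at low T content to 1.29 in the fastest at high T content with s4U.

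Count changes were unevenly spread over chromosomes. Genes on chromosomes 13, 4, 18 and 5 had the highest medians, with log2 fold changes of 1.71, 1.55, 1.37 and 1.22 in the s4U libraries. On chromosome 13, 61.8% of 220 genes were called higher and 5.91% lower, against 36.5% and 27.0% of all genes. Genes on chromosomes 19, 22, 17 and 16 had the lowest nuclear medians, at -1.30, -0.80, -0.60 and -0.59, and on chromosome 19 57.2% of 809 genes were called lower and 13.6% higher, against the same shares of all genes. The unlabelled medians were 1.69, 1.70, 1.46 and 1.27 for the first 4 and -1.29, -0.90, -0.71 and -0.65 for the last 4. With library totals as scaling, chromosome 19 stayed below 0 at -0.68 and chromosome 22 at -0.18, while chromosomes 17 and 16 moved to 0.02 and 0.04. Median T positions per read were 39.0, 38.9, 38.6 and 37.8 on the first 4 chromosomes, against 36.2 over all genes. On the last 4 they were 30.5, 33.2, 34.6 and 33.2. Whether chromosomes differed apart from T content was not tested.

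**Figure D3:**
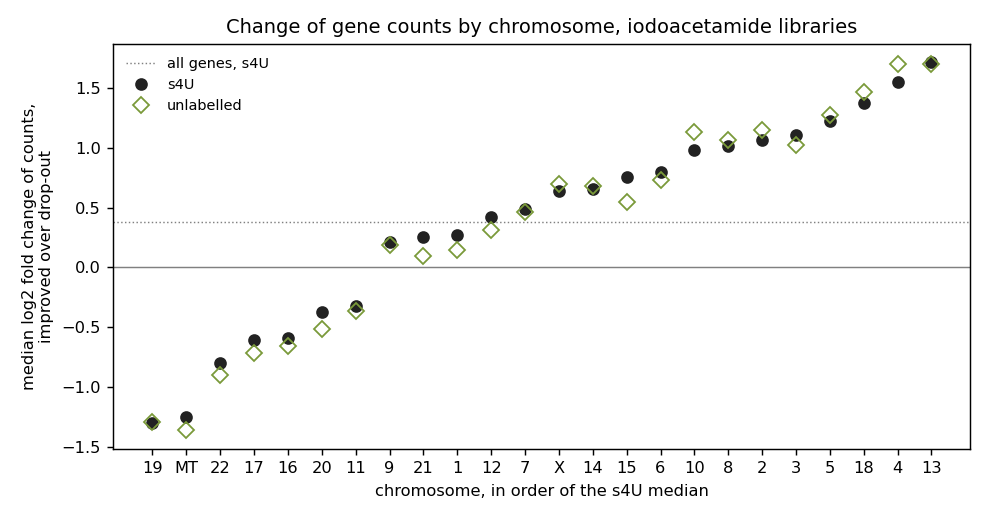
Median log2 fold change of exonic counts, improved over drop-out handling (y axis), for the genes of each chromosome ordered by the s4U median (x axis), with filled circles for s4U libraries, open diamonds for unlabelled libraries and a dotted line at the s4U median of all genes, 0.38. Chromosome 19 lies at -1.30 and chromosome 13 at 1.71, and the unlabelled medians follow the s4U medians closely. T content differs between chromosomes and is not held fixed.

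Mitochondrially encoded RNAs are transcribed inside mitochondria and comprise messages for respiratory chain subunits, ribosomal RNAs and tRNAs. The 14 mitochondrial genes with a mean of at least 200 reads had median converted shares of 35.2% and 25.5% in the drop-out s4U libraries and 30.4% and 30.5% in the improved ones. The improved values lay between the drop-out values, and the unlabelled libraries gave 4.95% and 5.53%. Their log2 odds ratios ran from -0.26 to 0.44, with a median of 0.04 against 1.02 for all genes, and edgeR called 0 of the 14, against 42.9% of all genes tested, with 0 at an unadjusted p under 0.05. No other tool was run on converted shares. The counts of all 14 were called lower, against 27.0% of all genes and 58.6% of those with a mean of 111 reads or more (median log2 fold change -0.95), by a median of -1.10 (range -1.57 to -0.70) with s4U and -1.17 without, and by -0.51 with s4U when scaled by library totals. T content was high in these genes, with a median of 40.4 T positions per read, the range in which genes overall had a median log2 fold change of 0.98 (the fourth T class).

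The authors' deposited table of first-order degradation rate constants gives named transcripts. Its log2 fold changes run in the direction improved over drop-out handling, since they lie within 0.35 of the log2 ratio of its own rate constants. Its time unit is not stated and it carries no replicate values, so only its constants, fold changes and adjusted p-values can be given. For iodoacetamide, 805 of 1600 transcripts in the authors' deposited table had an adjusted p under 0.05 (50.3%), 782 higher (48.9%) and 23 lower (1.44%) under improved handling. The median log2 fold change in the authors' deposited table was 1.14, with quartiles at 0.57 and 1.74. Of the 782, 738 more than doubled and 39 rose by over 3 on the log2 scale in the authors' deposited table.

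Median rate constants were higher under improved handling in each of 5 turnover classes, formed from the authors' deposited improved-handling constants for the other 2 chemistries in 1471 transcripts. From the slowest to the fastest class, the medians in the authors' deposited table went from 0.0138 to 0.0275, 0.0222 to 0.0561, 0.0352 to 0.0818, 0.0504 to 0.118 and 0.112 to 0.211. The median log2 fold changes of the authors' deposited table were 1.03, 1.38, 1.21, 1.28 and 0.90 in the same order. Called rises made up 35.9%, 53.1%, 50.7%, 60.2% and 51.4% of the classes in the authors' deposited table, against 48.9% of all its iodoacetamide transcripts. Falls were called for 9 transcripts in the slowest class (3.05%) and 9 in the fastest (3.06%), and for 1, 3 and 1 between them (0.34%, 1.02% and 0.34%), against 1.44% of all, in the authors' deposited table.

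**Figure D4:**
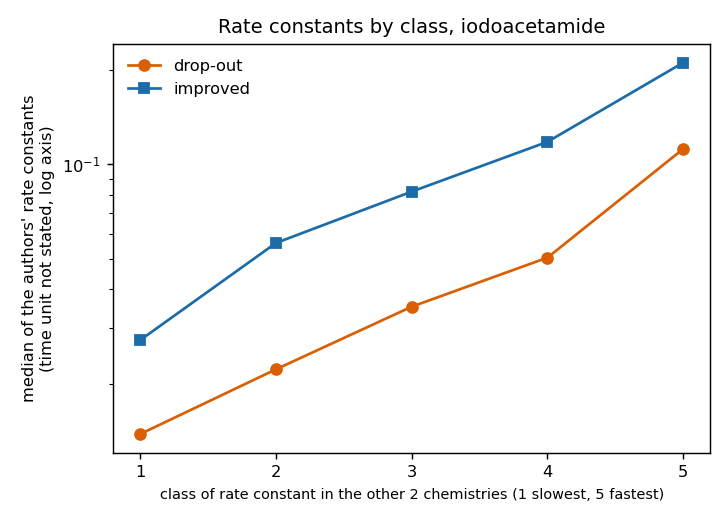
Median of the authors' deposited degradation rate constants with iodoacetamide (y axis, logarithmic, time unit not stated) in 5 classes of rate constant in the other 2 chemistries (x axis), orange for drop-out and blue for improved handling. The improved line lies above the drop-out line in each class, from 0.0275 against 0.0138 in the slowest to 0.211 against 0.112 in the fastest.

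The 5 largest called rises were those of NDUFA10, POLA2, PCSK7, TIMELESS and UBFD1. NDUFA10, a subunit of respiratory complex I, went from 0.00747 to 0.132 in the authors' deposited table, a log2 fold change of 4.43 (the authors' adjusted p = 9.82e-05). POLA2, a subunit of DNA polymerase alpha, had a log2 fold change of 3.80 and TIMELESS, a replication fork protein, one of 3.71 in the authors' deposited table. PCSK7, a proprotein convertase of the secretory pathway, and UBFD1 followed with 3.75 and 3.69 in the authors' deposited table. All 5 were also called higher with NaIO4 and TFEA in that deposited table of the authors, and all but UBFD1 with OsO4 and NH3 (the authors' adjusted p for UBFD1 was 0.108 there). Of the list of respiratory genes, 8 of 15 nuclear-encoded oxidative phosphorylation transcripts in the authors' deposited table were called higher (53.3%, against 48.9% of all transcripts) and none lower, with a median log2 fold change of 1.71 against 1.14. UQCRC1, a core subunit of complex III, went from 0.00532 to 0.0452, and COX6A1 of complex IV had a log2 fold change of only 0.07 without a call in the authors' deposited table.

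Among 17 transcripts of hnRNP proteins, which bind nascent transcripts, the authors' deposited table called 11 higher (64.7%, against 48.9% of all) and none lower, with a median log2 fold change of 1.79 against 1.14. HNRNPA1 went from 0.00805 to 0.0968 and HNRNPL from 0.0171 to 0.105 in the authors' deposited table, which are log2 fold changes of 3.61 and 2.66. HNRNPA0 and HNRNPF were not called there, at -0.25 and 0.29 in the authors' deposited table. Of 7 SR proteins and related splicing factors, 5 were called higher (71.4%, against 48.9% of all) in the authors' deposited table, with a median of 1.58. SRSF5 had 3.48, SNRNP70 of the U1 particle 2.05 and SRSF1 0.57 without a call in the authors' deposited table. The group of hnRNP proteins was put together after the table had been seen. So were those of tRNA synthetases, solute carriers and transcripts with HIST or zinc finger names.

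Of 9 glycolytic enzymes, the authors' deposited table called 7 higher (77.8%, against 48.9% of all) and none lower, with a median log2 fold change of 1.30 against 1.14. PFKL, the liver-type phosphofructokinase, went from 0.00411 to 0.0398 and PGK1 from 0.00322 to 0.0243 in the authors' deposited table. The 0.00322 of PGK1 was the lowest drop-out constant among the iodoacetamide transcripts of that table. GPI had 3.17 and PKM 1.59, while ALDOA at 0.26 and HK1 at 1.19 were not called in the authors' deposited table. Cytoplasmic aminoacyl-tRNA synthetases, which charge tRNAs with amino acids, had 9 of 14 members called higher (64.3%, against 48.9% of all) and none lower in the authors' deposited table, with a median of 1.55. QARS and MARS led them with 3.10 and 3.09, and FARSA had -0.20 without a call in the authors' deposited table. For sterol and lipid synthesis 3 of 7 were called higher (42.9%, against 48.9% of all) in the authors' deposited table, namely FDPS at 2.83, SREBF2 at 2.89 and SREBF1 at 1.39. Of 10 ATF4 stress and amino acid synthesis genes 4 were called higher (40.0%, against 48.9%), ASNS, SHMT2, PHGDH and ATF4 itself with 1.92, 1.85, 1.38 and 1.28, and the other members lay between -0.43 and 0.46 in the authors' deposited table.

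The authors' deposited table called 27 of 69 cytoplasmic ribosomal protein transcripts higher (39.1%, against 48.9% of all) and 1 lower (1.45%, against 1.44%). Their median log2 fold change was 0.94 against 1.14 for all transcripts. RPSA went from 0.00517 to 0.0298 and RPL37 from 0.0106 to 0.0657, whereas RPL23 went from 0.0560 to 0.0307 in the authors' deposited table. Among 5 translation elongation factors the authors' deposited table called none higher (against 48.9% of all) and 1 lower (against 1.44%). The latter was EEF2, which moves the ribosome along the message. It fell by 0.78 on the log2 scale, from 0.0666 to 0.0388 in the authors' deposited table. EEF1A1 had 0.49 without a call with iodoacetamide in the authors' deposited table. With OsO4 and NH3 the authors' deposited table called 2 of the 5 higher, EEF1A1 and TUFM, and EEF2 lower. With NaIO4 and TFEA it called none higher and EEF2 lower. For 17 chaperones 6 were called higher (35.3%, against 48.9% of all) and none lower in the authors' deposited table, with a median of 0.68 against 1.14. For 14 cytoskeleton genes 4 were called higher (28.6%, against 48.9% of all) and none lower in the authors' deposited table, with a median of 0.44. MYL6 rose by 2.51 and VIM by 1.53 on the log2 scale, but ACTB and ACTG1, the cytoplasmic actins, had 0.00 and 0.10 without a call in the authors' deposited table.

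Among 6 snoRNA host transcripts, the authors' deposited table called 4 higher (66.7%, against 48.9% of all), with GAS5 at 2.86, SNHG16 at 2.09, SNHG1 at 1.66 and SNHG17 at 1.06, and SNHG3 at 0.06 without a call. The long noncoding RNAs MALAT1 and NORAD had 0.03 and 0.34 without a call in the authors' deposited table. Of 8 mitotic and cell cycle genes the authors' deposited table called 3 higher (37.5%, against 48.9% of all), the mitotic cyclin CCNB1, the kinase PLK1 at 1.16 and the proliferation marker MKI67 at 0.63, and none lower. 18 solute carriers had 9 called higher (50.0%, against 48.9% of all) and none lower, with a median of 0.98 against 1.14, in the authors' deposited table.

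**Figure D5:**
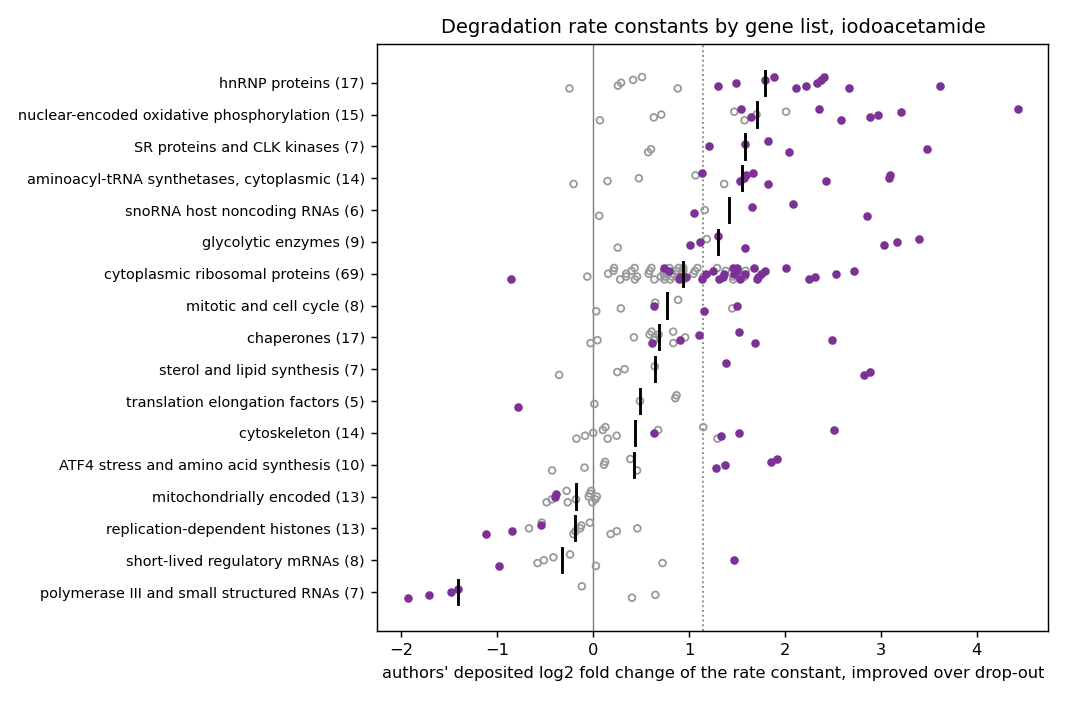
Log2 fold change of the authors' deposited degradation rate constants with iodoacetamide, improved over drop-out handling (x axis), for the members of 17 gene lists (y axis, number of members in brackets), with filled points for an adjusted p under 0.05, open points for the rest, a black bar at each list's median and a dotted line at the median of all 1600 transcripts, 1.14. The hnRNP proteins lie highest with a median of 1.79, and polymerase III and small structured RNAs lowest with -1.40. The histone list includes H1F0, which is replication-independent.

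The 23 transcripts called lower in the authors' deposited table began with MTCO1P12, a nuclear pseudogene of a mitochondrial gene, which fell by 2.06 on the log2 scale from 0.167. SNORD3C, a U3 small nucleolar RNA, went from 0.0356 to 0.00920 and RMRP, the RNA of the RNase MRP ribonucleoprotein, from 0.0392 to 0.0103 in the authors' deposited table. RN7SL1, the RNA of the signal recognition particle, went from 0.0231 to 0.00708 and its pseudogene name RN7SL5P from 0.0388 to 0.0115 in the authors' deposited table. RPPH1, the RNA of RNase P, and 7SK, which holds the elongation factor P-TEFb inactive, fell by 1.48 and 1.40 on the log2 scale in the authors' deposited table. In all, 4 of 7 polymerase III and small structured RNAs were called lower (57.1%, against 1.44% of all) and none higher (against 48.9%) in the authors' deposited table, with a median of -1.40, while RN7SL2, RNU4-2 and SCARNA2 had 0.41, 0.65 and -0.12 without a call. RN7SL1 and RN7SL2 are near-identical copies, as are the 7SL pseudogenes, and MTCO1P12 is a near copy of its mitochondrial source, so these values are uncertain; how reads were divided among copies was not tested.

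Of 13 histone transcripts, the authors' deposited table called 3 lower (23.1%, against 1.44% of all), HIST1H3H at -1.12, HIST1H3B at -0.84 and HIST1H1C at -0.54, and none higher. The list was written for replication-dependent histones but also holds H1F0, a replication-independent linker histone, at 0.46 without a call in the authors' deposited table. Over all 22 transcripts with HIST names, 3 were called lower (13.6%, against 1.44% of all) and none higher (against 48.9%) in the authors' deposited table. Their median was -0.10 against 1.14. The median of the 13 was -0.18 in the authors' deposited table, and many histone genes are near-identical copies. Of 13 mitochondrially encoded transcripts, MT-CO2 and MT-CYB were called lower at -0.39 and -0.38 (15.4%, against 1.44% of all) and none was called higher, with all 13 between -0.48 and 0.04 in the authors' deposited table. Their median went from 0.134 to 0.109 in the authors' deposited table, against 0.0354 and 0.0833 over all transcripts.

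Of the list of short-lived regulatory messages, the 8 in the authors' deposited table had a median of 0.692 under drop-out and 0.486 under improved handling, with 1 called lower (12.5%, against 1.44% of all transcripts), 1 called higher (12.5%, against 48.9%) and a median log2 fold change of -0.33. Their drop-out constants ran from 0.0241 for ODC1, the first enzyme of polyamine synthesis, to 1.13 for MYC in the authors' deposited table, against a median of 0.0354 over all transcripts. JUN, an immediate-early transcription factor, went from 1.09 to 0.547, a log2 fold change of -0.98 (the authors' adjusted p = 0.000294) in the authors' deposited table. MYC went from 1.13 to 0.953 and DDIT4 from 1.03 to 1.05, both without a call in the authors' deposited table. MXD4, an antagonist of MYC, was the member called higher, from 0.0597 to 0.164 in the authors' deposited table. Further falls called in the authors' deposited table, chosen here after their values were seen, were those of ZNF503, IRF2BP2, FOXC1, STC2 and BCOR, with log2 fold changes of -0.91, -0.83, -0.64, -0.63 and -0.52. Of 12 transcripts with zinc finger names, 1 was called higher (8.33%, against 48.9% of all) in the authors' deposited table. Another, ZNF503, was called lower (8.33%, against 1.44%), and the median was 0.13 against 1.14.

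The handling effect of iodoacetamide was then set against the mean effect of the other 2 chemistries, NaIO4 with TFEA at pH 5.2 and OsO4 with NH3, in tests of the difference itself. In gene counts edgeR called 0 of 12449 genes, with 530 at an unadjusted p under 0.05, and DESeq2 called 0. In converted share edgeR called 0 of 2263 genes, with 34 at an unadjusted p under 0.05, and in new fraction limma called 0 with 54. Without drop-out replicate 1, edgeR called 12 genes for counts and 1 for converted share. The median differences were -0.02 for log2 counts and -0.04 for the log2 odds ratio of conversion. The latter was 0.20 without drop-out replicate 1 and -0.32 without drop-out replicate 2. Of the 23 falls in the authors' deposited table, 21 were also negative with NaIO4 and TFEA, 11 of them called, and all 23 were negative with OsO4 and NH3, 8 of them called. Across the 1471 transcripts measured with all 3 chemistries, the median log2 fold changes in the authors' deposited table were 1.16 for iodoacetamide, 1.18 for NaIO4 and TFEA and 1.16 for OsO4 and NH3.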

How the data were processed

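Per the labels' protocols, RNA was extracted with Trizol, treated with DNase, converted and made into stranded total-RNA libraries. The authors deposited read counts by library, aligner, settings code, contig, gene, intronic flag, T-to-C mismatches and T positions (the other whole-number values of the deposited table), and rate constants with a log2 fold change and an adjusted p-value. The submitters' processing notes name GRCh38, cutadapt, HISAT, HISAT2, STAR, Picard, HTSeq and DESeq2, without versions or roles. The settings codes are not defined in the sources used here. HISAT-3N settings D was the main alignment.

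Exonic counts were fitted with edgeR 4.0.16 (quasi-likelihood, TMM, filterByExpr) over 18 libraries in 12 groups, and converted against other reads over the 12 s4U libraries, with each library as a term of the model. New fractions came from a mixture of 2 binomials per gene and library and were tested with limma 3.58.1 on log2 odds. Adjusted p-values are Benjamini-Hochberg over all genes tested, at 0.05. Standard errors are the effect over the root of F. The code was tested on simulated data. DESeq2 1.42.0, other scalings, filters, alignments, read classes and left-out libraries were alternatives. Reads that name no gene (19.3% to 41.5%) entered no test.

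Members, gene lists and tests were chosen with earlier results of these data known. Genes named from counts and shares are the largest changes in each direction (counts: at least 10 reads in each s4U library and a mean of 200; shares: a mean of 200), limited to 2 identifiers. From the rate constants the 5 largest changes in each direction among transcripts with an adjusted p under 0.05 were named. The planned choice of list members by read number could not be applied because identifiers were not paired with symbols here, so list members were picked after their values were seen. Older symbols were matched through RefSeq synonyms, and 1504 of 1600 names are current RefSeq symbols. The 10 samples of other chemistries were not analysed here.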

Additional observations from a re-analysis of the deposited data

How the results depend on the processing

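The count of genes changed in the s4U libraries stayed within 1.5 times of 7907 under each scaling, filter, alignment and read class run, DESeq2 included, and from 5457 to 7734 with single libraries left out. The converted-share count of 970 was 217 of 393 genes with at least 200 reads, 2238 of 3033 with intronic reads included and 2 after subtraction of the unlabelled libraries, and 240 to 1167 with single libraries left out. The new-fraction count of 540 was 849 with 1 conversion rate for all 4 libraries, 174 of 393 genes with 200 reads, 299 in the 4 s4U iodoacetamide libraries alone, and 0 to 683 with single libraries left out. The interaction of label and handling gave 0 to 1 genes, and the contrast with the other 2 chemistries 0 to 12 for counts and 0 to 1 for converted share, with single libraries left out. At an adjusted p under 0.01 the authors' deposited table calls 529 transcripts. The difference between handlings in the gap from slowest to fastest class, improved minus drop-out, ran from -0.27 to 0.12 for log2 counts and from 5.73 to 14.2 points for converted share with single libraries left out. With 1 library left in a group, its spread is assumed to equal that of the other groups. The subtraction rests on 1 unlabelled library per handling, and the cause of these changes was not tested.

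The labels do not say that replicate numbers pair samples, and correlations of same-numbered deviations over genes were 0.00576 for log2 CPM and 0.00469 for converted share, from only 2 numbers per chemistry. The conversion rate of new reads was nevertheless higher in replicate 1 than in replicate 2 in all 6 s4U groups, for iodoacetamide by 6.03% against 4.47% per T position under drop-out and 7.84% against 6.62% under improved handling. With the replicate block edgeR called 6925 genes for counts in the 12 s4U libraries, against 7617 without it there, and 1048 for converted share, and limma called 421 for the new fraction. Without the 20 genes over 10% converted in an unlabelled library, 970 genes were again called for converted share. Rare genes limit the depth: genes under 50 reads in an s4U library had no converted-share test.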
